A study of Mus musculus with 18 samples.

Results

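The comparison described here set RAW264.7 macrophages that received a Hypericum perforatum sub-fraction, a plant extract product, against RAW264.7 macrophages that received solvent, with no lipopolysaccharide (LPS) in either group. Its members were chosen by sample title, as the 3 arrays of the fraction and the 3 of medium with DMSO, which are 6 of the 18 arrays of the series, and every probe set was read. The fraction group received the sub-fraction at 10 ug/mL, and the solvent group, called vehicle below, received 0.1% DMSO in medium. The labels state DMSO for the solvent control only, so how far the solvent of the fraction arrays matched it is not known. All groups shared the cell line, the growth medium, a treatment of 8 h begun in the dark, and 30 min of ambient light. Other arrays were used beside them. In the first set, 3 fraction and 3 vehicle arrays came from cells that also received 10 ug/mL LPS, the bacterial ligand of Toll-like receptor 4. In the second set, 3 arrays without LPS came from cells given a mixture of 4 compounds, namely pseudohypericin at 0.03 uM, amentoflavone at 0.07 uM, quercetin at 0.08 uM and chlorogenic acid at 0.2 uM. RAW264.7 is an established line from a mouse tumour, so it models macrophages without the other cells of a tissue. The labels give no composition of the sub-fraction, and leave unstated if separate cultures lie behind the 3 arrays of each group. The p-values therefore cover only the spread among these arrays, part or all of which may be technical.

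Several of the transcript programmes measured here have well-known regulators. When amino acids or heme run short or unfolded protein accumulates, kinases phosphorylate the initiation factor eIF2, translation slows, and the transcription factor ATF4 is made; ATF4 and its target CHOP (gene Ddit3) induce genes of amino acid import, amino acid synthesis and tRNA charging. Type I interferon induces antiviral genes, the SREBP factors drive sterol and fatty acid synthesis when sterols are low, and E2F factors drive the genes of DNA replication.

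Signals are MAS5 intensities, scaled to the same trimmed mean on every array, and the 6 arrays had medians between 52.1 and 64.9. Changes are log2 differences of the group means, fraction minus vehicle, ± standard error from limma with 3 arrays per group. A gene is said to have risen or fallen where its p-value, adjusted over all 11547 genes tested, was under 0.05. Arrays of the same group correlated at 0.974 to 0.979 over log2 signals and arrays of different groups at 0.953 to 0.959. All 10 macrophage markers reached the array median on all 6 arrays, Cd68, Csf1r and Lyz2 among them. Of these 10, 2 rose with the fraction, Ptprc (0.53 ± 0.09) and Mpeg1 (0.63 ± 0.20). Of 25 markers of T cells, B cells, neutrophils, mast cells, fibroblasts, epithelium, endothelium, erythroid cells and neurons, 7 were bright enough to test and 0 passed. None of the 25 reached the array median on all 3 arrays of either group, and their summed signal was 480 to 753 on the vehicle arrays and 533 to 713 on the fraction arrays.

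With the fraction, genes of the ATF4 and CHOP response and of amino acid supply rose, as did the iron exporter gene Slc40a1, and genes of interferon signalling, sterol synthesis and DNA replication fell. Of the 11547 genes, 1837 rose (15.9%) and 1771 fell (15.3%), together 31.2% of those tested. The counts in gene lists below are to be read against these shares. Scaling moved the balance of rises and falls: with each array centred on the median of all kept probe sets, 1344 rose and 2274 fell, which took the share of rises among the calls from 50.9% to 37.1%. Most changes were small, with 83.8% of the called genes under 2-fold and a median absolute log2 difference of 0.28 over all genes. Rises reached larger sizes than falls: 389 genes rose and 195 fell by at least 2-fold, 92 and 23 by at least 4-fold, and 22 and 2 by at least 8-fold. The groups did not overlap for 42.9% of all tested genes. Statements below that groups do not overlap are to be read against this share. The largest rises and falls were chosen for groups that did not overlap. Of the 2103 called genes with more than 1 kept probe set, 700 had every probe set called in the same direction and 29 had calls in both directions. Among genes named below, Keap1, Nop16, Ccna2 and Slc30a1 each had 1 of 2 kept probe sets called.

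Large rises included those of Trib3, Ddit3, Fcgr2b and Slc40a1. Trib3, a pseudokinase gene induced by ATF4 and CHOP, had signals of 187, 199 and 194 on the vehicle arrays and 5239.5, 5382 and 4799 on the fraction arrays. Its rise was 26.6-fold (4.73 ± 0.16, adjusted p = 4.0e-13), and its probe set is of a kind open to cross-hybridization, although both kept probe sets rose. Slc40a1 encodes ferroportin, the iron exporter of macrophages, and had signals of 42.2, 62.4 and 66.0 with vehicle and 602, 1566 and 1185 with the fraction. The log2 difference was 4.22 ± 0.46 (adjusted p = 1.1e-06), and no fold is given because the vehicle signals lay at the array medians. Fcgr2b, the inhibitory Fc gamma receptor gene, went from 245, 287 and 268 to 3329.6, 4157 and 3812, 14.1-fold higher (3.82 ± 0.23, adjusted p = 4.8e-10), and all 4 of its probe sets rose. Several other large rises started from signals under the array median, so only a lower bound of the fold can be given. Aqp9, a channel for glycerol and other small solutes, had 45.9, 30.4 and 17.6 with vehicle and 452, 578 and 545 with the fraction, at least 9.43-fold higher (4.17 ± 0.31). The iron and siderophore carrier gene Lcn2 rose at least 9.21-fold (3.21 ± 0.45) and the lysosomal transporter gene Slc46a3 also rose (3.76 ± 0.37). Glrp1 rose 10.6-fold and Angptl6, an angiopoietin-like gene, 9.28-fold, from vehicle signals of 77.9, 59.4 and 77.4 and 134, 95.1 and 107. The largest fitted difference, of the guanylate-binding protein gene Gbp8 (5.59 ± 1.55), rested on vehicle signals of 3.21, 1.07 and 17.9, all under the array median. Gbp8 had fraction signals of 199, 246 and 139.6, and its adjusted p was 0.054 without replicate 2 of the fraction group and 0.11 without the 6 arrays numbered 1.

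The largest fall was that of Hspa1b, a stress-inducible HSP70 gene. It read 889.7, 967 and 1117 with vehicle and 66.2, 79.1 and 54.6 with the fraction, 14.99-fold lower (-3.91 ± 0.17, adjusted p = 8.3e-12), and all 3 of its probe sets fell. Hspa1a, its near-identical copy on another probe set, was at -0.70 ± 0.43 (adjusted p = 0.24), and signals from the copies cannot be fully told apart. Ung, a uracil DNA glycosylase gene, had signals of 1299.7, 1522 and 1451 with vehicle and 210.4, 175 and 228 with the fraction (-2.81 ± 0.22, adjusted p = 1.8e-08). The sulfotransferase gene Chst1 went from 1023, 1414 and 1558 to 199, 286 and 509, 4.27-fold lower (-2.09 ± 0.29). For Hspa1b, Ung and Chst1 no fraction array reached the lowest vehicle array, a condition under which the largest falls were chosen.

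**Figure D1:**
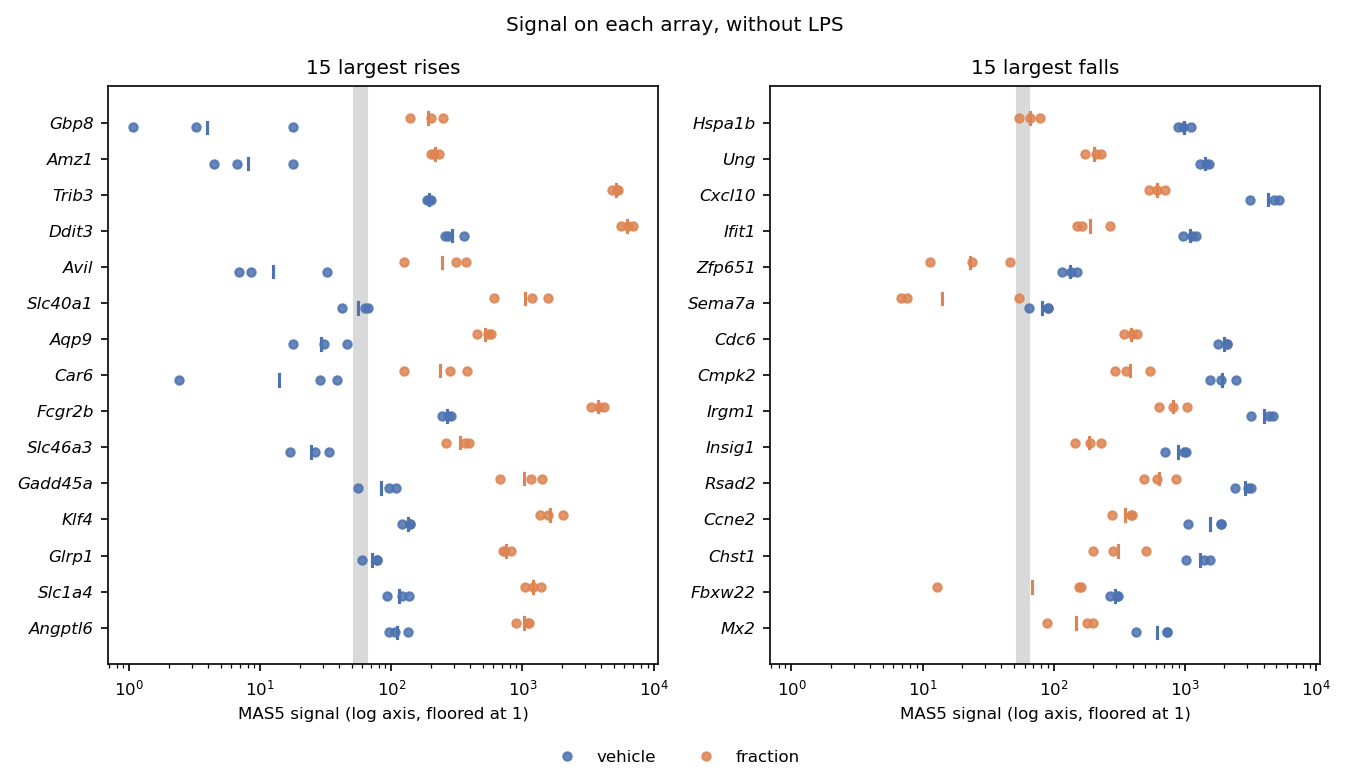
MAS5 signal (log axis) of the 15 largest rises and the 15 largest falls among genes at or above the array median on all 3 arrays of the higher group, one point per array, with a short bar at the mean of the log2 values; the grey band spans the medians of the 6 arrays. The genes were chosen for groups that do not overlap, and several rises start left of the band, where only a lower bound of the fold is given.

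The integrated stress response rose as a group. Of its 22 measured genes 17 rose and 1 fell, and their median difference was 1.39 against 0.02 over all tested genes. Ddit3, the CHOP gene, had signals of 255, 360.2 and 272 with vehicle and 6328, 6951 and 5618 with the fraction, a 21.5-fold rise (4.42 ± 0.23, adjusted p = 6.2e-11). Atf3, a stress-induced transcription factor gene downstream of ATF4, went from 243, 326 and 301 to 2094, 2622 and 3244 (3.18 ± 0.24, adjusted p = 1.0e-08), and Nupr1, a stress-induced chromatin cofactor gene, from 738, 751 and 777 to 6141, 6207 and 6544 (3.06 ± 0.16, adjusted p = 1.0e-10). For each of these the lowest fraction array was over 5 times the highest vehicle array, although Ddit3 was chosen among genes without overlap. The single member that fell was Eif2ak1, the heme-regulated eIF2 kinase (-0.41 ± 0.11), whose adjusted p of 0.0067 was 0.05 without the 6 arrays numbered 1 (0.0013 to 0.05 over the alternatives). Of the eIF2 kinases outside that call, Eif2ak3 (PERK) at 0.01 ± 0.10 and Eif2ak4 (GCN2) at -0.16 ± 0.18 did not pass. Eif2ak2 (PKR), which is counted in the interferon list below, fell. Ppp1r15b, the constitutive eIF2 phosphatase subunit gene, was at -0.00 ± 0.14, and the death receptor gene Tnfrsf10b, another CHOP target, at -0.53 ± 0.34 (adjusted p = 0.26).

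Genes that supply amino acids and charge them to tRNA moved in the same direction. Of the 17 measured genes of serine, one-carbon and asparagine synthesis 13 rose and 2 fell (median 0.74). Cth, which makes cysteine from cystathionine, had signals of 358, 452 and 454 with vehicle and 3444, 3363 and 4013 with the fraction, 8.59-fold higher (3.10 ± 0.14, adjusted p = 1.9e-11). Aldh1l2, a mitochondrial folate enzyme gene, went from 630.1, 616 and 673 to 3708, 3662 and 3924 (2.56 ± 0.12), and the mitochondrial enzyme genes Gpt2, an alanine transaminase, and Pck2, the mitochondrial PEPCK, rose 4.77-fold (2.26 ± 0.11) and 4.34-fold (2.12 ± 0.12). The 2 members that fell were Shmt1 (-0.53 ± 0.11) and Mthfd1 (-0.50 ± 0.09), which encode the cytosolic counterparts of mitochondrial one-carbon enzymes; their mitochondrial counterparts Shmt2 (0.46 ± 0.06) and Mthfd2 (1.32 ± 0.09) rose. These 4 genes were singled out after their values were seen.

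Among 21 cytosolic tRNA synthetase and scaffold genes 12 rose and 1 fell, the scaffold gene Aimp2 (-0.47 ± 0.07), with a median of 0.65. Aars, the alanyl-tRNA synthetase gene, read 2611, 2559 and 2279 with vehicle and 6129.8, 6927 and 5868 with the fraction (1.34 ± 0.09, adjusted p = 2.4e-09). Cars was at 1.14 ± 0.08, Sars at 1.06 ± 0.10 and Wars at 0.96 ± 0.10, the cysteinyl, seryl and tryptophanyl enzymes. Members that did not pass included Kars (-0.06 ± 0.07), Hars (0.13 ± 0.08) and Qars (0.14 ± 0.08). Of 22 amino acid transporters 12 rose and 2 fell, Slc16a10 (-0.52 ± 0.10) and Slc7a6 (-0.41 ± 0.08), with a median of 0.54. Slc1a4, a transporter of alanine, serine and cysteine, had signals of 135, 93.2 and 121 with vehicle and 1199.7, 1384 and 1041 with the fraction, 10.4-fold higher (3.38 ± 0.18, adjusted p = 1.0e-10). The cationic and neutral amino acid exchanger gene Slc7a7 went from 86.6, 82.9 and 90.6 to 408, 427 and 354 (2.19 ± 0.27) and the glycine transporter gene Slc6a9 from 577, 538 and 502 to 1623, 1593 and 1617 (1.58 ± 0.12). The glutamine transporter gene Slc1a5 was at -0.12 ± 0.08 and did not pass.

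The promoter windows of these genes are shown because members rose together and ATF4 and CHOP are known to bind a composite element. RefSeq promoters of build GRCm38.p6 run from 250 bases before to 50 after the gene start, and 9385 of the 11547 tested genes had one. The letters TGATGNAA on either strand were found for 2.82% of those genes, for 5.18% of the genes that rose and for 2.02% of those that fell. They were present for 5 of the 19 integrated stress response genes with a promoter (26.3%) and for 3 of 15 genes of the serine and one-carbon list (20.0%). Both shares count members whether called or not. The stress list was drawn up for the ATF4 and CHOP response, and ATF4 is known to induce genes of amino acid synthesis. Neither share is therefore a result of these arrays. With 14 of 21 synthetases and 16 of 22 transporters matched, under 80% of those lists had a promoter, so their shares are void. A match is a description of letters and not a bound site. In the windows below, Trib3 lies at chr2:152344011-152344310, minus strand, Atf3 at chr1:191183284-191183583, minus strand, and Asns, the asparagine synthetase gene, at chr6:7693160-7693459, minus strand; each is written 5′ to 3′ along its gene, and the match is in capitals.
Trib3: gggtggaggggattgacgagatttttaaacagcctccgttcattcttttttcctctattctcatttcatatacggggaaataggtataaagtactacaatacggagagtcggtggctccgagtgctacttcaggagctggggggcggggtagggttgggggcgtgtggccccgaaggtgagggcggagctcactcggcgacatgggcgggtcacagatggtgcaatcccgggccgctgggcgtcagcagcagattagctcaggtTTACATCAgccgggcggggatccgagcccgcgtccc
Atf3: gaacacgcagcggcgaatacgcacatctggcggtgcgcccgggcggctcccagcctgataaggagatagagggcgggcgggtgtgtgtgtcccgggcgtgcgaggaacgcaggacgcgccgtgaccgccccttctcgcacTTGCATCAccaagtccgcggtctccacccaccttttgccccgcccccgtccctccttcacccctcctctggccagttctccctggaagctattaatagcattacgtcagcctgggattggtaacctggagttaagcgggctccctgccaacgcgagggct
Asns: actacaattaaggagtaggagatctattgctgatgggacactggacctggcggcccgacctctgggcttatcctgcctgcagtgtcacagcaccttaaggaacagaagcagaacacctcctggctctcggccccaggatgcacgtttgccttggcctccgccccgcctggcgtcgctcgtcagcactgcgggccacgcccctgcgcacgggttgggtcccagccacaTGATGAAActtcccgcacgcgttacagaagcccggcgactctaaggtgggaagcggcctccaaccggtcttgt
The match began 15 bases after the gene start in Trib3, 110 bases before it in Atf3 and 23 bases before it in Asns. Asns itself rose from 6523, 7150.5 and 7104 to 12373, 13113 and 13393 (0.90 ± 0.07, adjusted p = 1.6e-08).

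**Figure D2:**
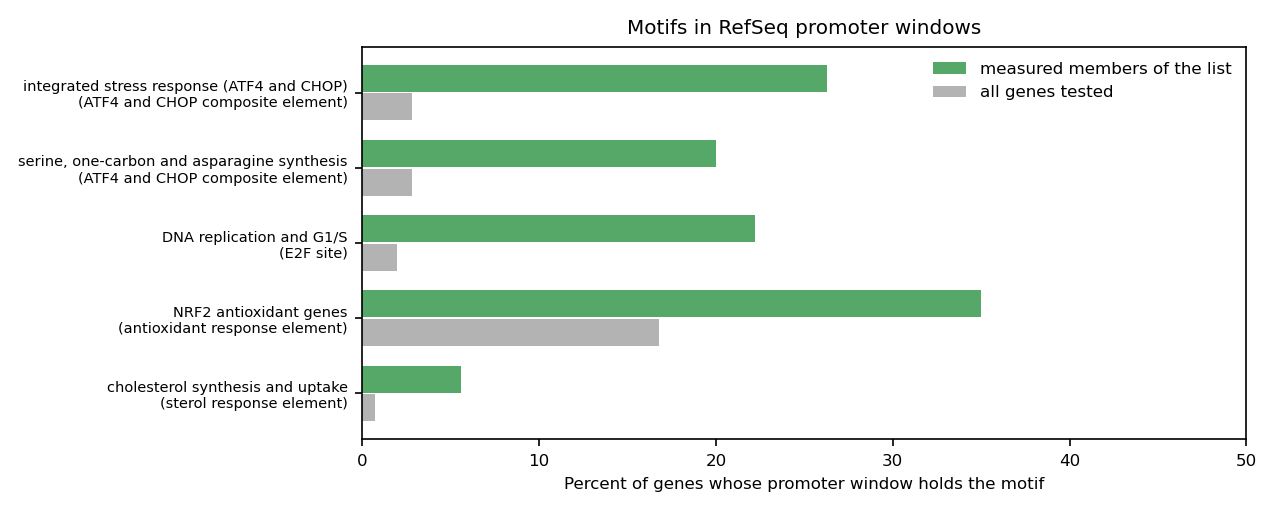
Percent of measured list members (green) and of all tested genes (grey) whose RefSeq promoter window of 300 bases holds the motif named under the list; lists with a promoter for under 80% of members are not drawn. The stress and serine lists stand at 26.3% and 20.0% against 2.82% of all genes for the ATF4 and CHOP element. Shares count members whether called or not. The stress list was drawn up for the ATF4 and CHOP response, and the other lists for programmes with known regulators. The shares are therefore not results of these arrays.

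Of 25 measured chaperones of the endoplasmic reticulum and XBP1 targets 4 rose and 6 fell, near the shares over all genes (15.9% and 15.3%), and the median difference was 0.02, as over all genes. The 4 that rose were Herpud1 (1.27 ± 0.11), Derl1 (0.97 ± 0.10) and Sel1l (0.93 ± 0.10), which act in the disposal of misfolded proteins, and the stress sensor gene Atf6 (0.97 ± 0.13). Herpud1 had signals of 1830.5, 2248 and 2036 with vehicle and 4622, 5213 and 4908 with the fraction, without overlap. The main chaperone gene Hspa5 (BiP) was at 0.21 ± 0.09 and Hsp90b1 at 0.02 ± 0.11, neither of which passed, and Xbp1 was at 0.06 ± 0.09. Cytosolic heat shock genes fell more often than they rose, with 7 lower and 2 higher of 18 (median -0.19). Besides Hspa1b, the co-chaperone gene Dnajb1 (1642, 1515 and 1282 with vehicle, 822, 877 and 829.6 with the fraction) and Hsph1, an HSP110 gene (-0.60 ± 0.10), fell, while the co-chaperone gene Dnajb4 rose (1.04 ± 0.10) and Hsp90aa1 was at -0.07 ± 0.11. Of 16 mitochondrial chaperones, proteases and import genes 4 rose and 2 fell (4 after centring on all kept probe sets), led by the protease gene Lonp1, from 2499.5, 2813 and 2514 to 5417, 5929.6 and 5117 (1.07 ± 0.09), and Dnaja3 (0.92 ± 0.10). Of 26 proteasome subunits 2 were higher and 2 lower, with all differences between -0.39 and 0.36.

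Interferon-response genes were lower with the fraction in these cells without LPS. Of 34 measured genes 29 fell and 0 rose, with a median of -0.93. Cxcl10, a chemokine gene, had signals of 3121, 5219 and 4816 with vehicle and 534, 711 and 619 with the fraction, 6.94-fold lower (-2.79 ± 0.18, adjusted p = 1.2e-09). Ifit1, which binds foreign RNA, went from 965, 1219.9 and 1134 to 150.5, 270.3 and 163 (-2.55 ± 0.23, adjusted p = 7.9e-08). Rsad2, the viperin gene, went from 3218, 3048 and 2406 to 492, 851 and 617 (-2.17 ± 0.25, adjusted p = 2.1e-06), and all 3 of its probe sets fell. In each of these genes every fraction array lay below the lowest vehicle array by more than 2-fold. Cxcl10, Ifit1 and Rsad2 were among the largest falls, which were chosen for groups that did not overlap. Arrays with the same number stood together in this list. Replicate 1 was below replicates 2 and 3 for 33 of the 34 genes among the vehicle arrays and for 31 among the fraction arrays, as for Mx2 (424, 731 and 734 with vehicle, 89.4, 199 and 180.5 with the fraction). Replicate 2 was above replicates 1 and 3 for 26 and 30 genes. Without the 6 arrays numbered 1, 32 of the 34 genes fell, and when single arrays were left out 25 to 31 did. What the numbers share is not in the labels, and its part in the result was not tested. The 5 members that did not pass were Oas1a (0.01 ± 0.12), Oas3 (-0.44 ± 0.24), Bst2 (-0.22 ± 0.16), Xaf1 (-0.49 ± 0.23) and Isg20 (-0.63 ± 0.39). Of the 8 measured genes of the interferon-inducible GTPase list, 5 fell and 0 rose, with a median of -1.10. The list does not hold Gbp8, a gene of the same family that rose. Without vehicle replicate 1, vehicle replicate 2 or fraction replicate 3, 4 of the 8 fell. Gbp2, 1 of the 5, lay under the array median on all 6 arrays (-2.33 ± 0.76, adjusted p = 0.025). With 32 added to each signal before log2, Gbp2 was at -0.65 and did not pass (adjusted p = 0.17). Irgm1, which acts on pathogen vacuoles and autophagy, had signals of 3176, 4691 and 4400.0 with vehicle and 635, 1039 and 818 with the fraction (-2.31 ± 0.19, adjusted p = 2.7e-08), and Igtp went from 1184, 2109.7 and 2087 to 372, 499 and 532 (-1.91 ± 0.23). Gbp3 was at -0.49 ± 0.42 and Iigp1 at -0.33 ± 0.29, and neither passed.

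The interferon-stimulated response element, searched as GAAANNGAA on either strand, was found in the promoter windows of 8.45% of all tested genes. Of the 34 interferon genes 24 had a promoter, under 80%, so the share of the list is void. Windows of the genes at the head of the list are shown, Cxcl10 at chr5:92348840-92349139, minus strand and Ifit1 at chr19:34640639-34640938, plus strand, with the matches in capitals.
Cxcl10: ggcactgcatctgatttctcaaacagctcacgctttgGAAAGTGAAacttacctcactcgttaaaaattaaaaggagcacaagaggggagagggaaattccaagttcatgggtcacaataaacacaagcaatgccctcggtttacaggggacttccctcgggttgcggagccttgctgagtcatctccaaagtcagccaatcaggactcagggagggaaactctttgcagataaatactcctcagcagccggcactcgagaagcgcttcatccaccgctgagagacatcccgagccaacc
Ifit1: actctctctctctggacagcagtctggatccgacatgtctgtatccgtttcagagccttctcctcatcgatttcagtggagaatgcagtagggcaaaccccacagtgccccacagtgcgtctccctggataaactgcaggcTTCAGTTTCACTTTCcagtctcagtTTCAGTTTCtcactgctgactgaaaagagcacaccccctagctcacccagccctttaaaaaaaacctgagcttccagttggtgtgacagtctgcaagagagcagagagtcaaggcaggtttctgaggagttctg
Ifit1 held 3 matches, of which the first and second overlap, starting 109 to 84 bases before the gene start, and Cxcl10 held 1 that starts 213 bases before it.

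**Figure D3:**
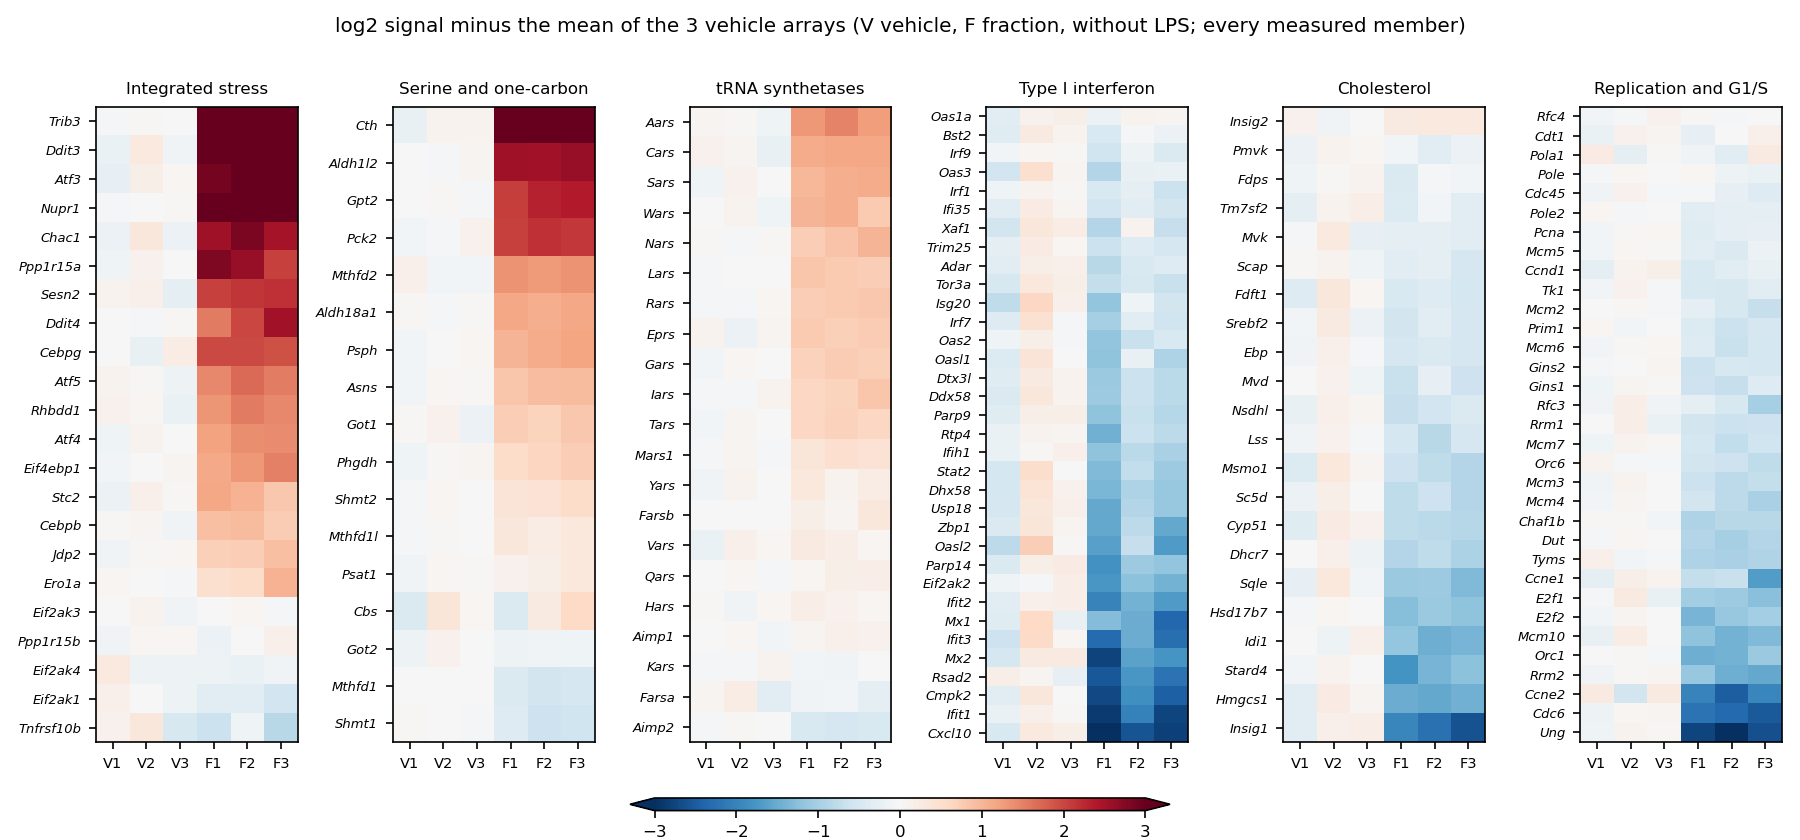
log2 signal of every measured member of 6 gene lists on each vehicle (V1 to V3) and fraction (F1 to F3) array, minus the mean of the 3 vehicle arrays; red is higher, blue lower, and colours end at -3 and 3. The 3 fraction arrays share their colour in most rows, while V1 and F1 are the lowest of their group in 33 and 31 of the 34 interferon rows.

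Sterol and fatty acid synthesis genes were lower. Of 22 measured cholesterol synthesis and uptake genes 17 fell, with a median of -0.59, and the 1 that rose was Insig2 (0.29 ± 0.09), which did not pass when any of 4 arrays was left out (vehicle replicate 2 or 3, fraction replicate 2 or 3; 0.016 to 0.13 over the alternatives). Insig1, which holds SREBP in the endoplasmic reticulum and is itself an SREBP target, had signals of 707, 988 and 1017 with vehicle and 228, 190.4 and 147 with the fraction (-2.27 ± 0.17, adjusted p = 5.7e-09). Hmgcs1, an early enzyme gene of the mevalonate pathway, went from 2725, 4019 and 3594 to 1208, 1172 and 1257 (-1.49 ± 0.13), and Idi1, an isoprenoid enzyme gene, from 2839, 2508 and 3097 to 1256, 1011 and 1063 (-1.34 ± 0.11). All fraction arrays lay below all vehicle arrays for the 3 genes, but Insig1 was chosen among genes without overlap. All 5 probe sets of Hmgcs1 fell, the brightest being of a kind open to cross-hybridization. Stard4, a sterol carrier gene, was at -1.47 ± 0.14. Of the 17 fatty acid synthesis and desaturation genes 10 fell and 1, the lipogenic regulator gene Mid1ip1, rose (0.64 ± 0.15), with a median of -0.44. Fasn, the fatty acid synthase gene, read 3438, 4177 and 3550.3 with vehicle and 1562, 1667 and 1415 with the fraction (-1.26 ± 0.09, adjusted p = 2.6e-09). Elovl6, an elongase gene, was at -1.15 ± 0.14 and the desaturase gene Scd2 at -1.12 ± 0.22. The sterol response element letters TCACCCCAC stood in the windows of 0.703% of tested genes and of 1 of 18 cholesterol genes with a promoter (5.56%). SREBP factors are known to drive sterol synthesis, so this share is not a result of these arrays. The 1 gene was Hmgcs1, at chr13:119690101-119690400, plus strand. Its match, in capitals, starts 137 bases before the gene start.
Hmgcs1: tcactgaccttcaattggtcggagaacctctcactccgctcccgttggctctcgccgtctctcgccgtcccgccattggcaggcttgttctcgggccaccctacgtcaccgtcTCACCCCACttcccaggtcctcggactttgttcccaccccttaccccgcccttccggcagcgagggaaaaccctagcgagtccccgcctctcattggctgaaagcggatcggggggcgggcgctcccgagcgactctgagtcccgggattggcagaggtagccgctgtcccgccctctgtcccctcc

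Of 22 lipid droplet, PPAR and LXR genes 7 rose and 0 fell, with 4 rising without replicate 3 of the vehicle group, and the median was 0.09. Plin2, the main lipid droplet coat gene, had signals of 1321, 1874 and 1417 with vehicle and 6467, 7108 and 4893 with the fraction, 4.00-fold higher (2.00 ± 0.23, adjusted p = 1.6e-06). Plin3, a second coat gene, went from 327, 425 and 408 to 689, 776 and 712 (0.91 ± 0.12). The LXR target Abcg1 was at 0.09 ± 0.21, the fatty acid carrier gene Fabp4 at -0.30 ± 0.23 and the scavenger receptor gene Cd36 at -0.10 ± 0.33, and none of these passed. Apoe was at -1.96 ± 0.80 (adjusted p = 0.070).

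DNA replication genes fell. Of 33 measured genes of replication and the G1/S transition 25 fell and 0 rose, with a median of -0.61. Cdc6, which loads the replicative helicase, had signals of 1800.5, 2087 and 2109.7 with vehicle and 432, 395 and 346 with the fraction (-2.36 ± 0.17, adjusted p = 4.6e-09). Ccne2, a cyclin E gene, went from 1874, 1063 and 1885 to 387, 278 and 399 (-2.15 ± 0.28), and Rrm2, the regulated subunit of ribonucleotide reductase, from 8126, 9008 and 9301 to 4007, 3179 and 3027 (-1.38 ± 0.14, adjusted p = 4.9e-07). No fraction array reached a vehicle array for these genes, but Cdc6 and Ccne2 were chosen among genes without overlap. Members that did not pass included Pola1 (-0.05 ± 0.16), Cdt1 (-0.03 ± 0.11) and Rfc4 (-0.02 ± 0.10). Of 28 mitotic genes 6 fell and 1 rose, with a median of -0.16; 10 fell without the 6 arrays numbered 1, and 10 after centring on all kept probe sets. The difference from the replication list was not tested. Ccna2, the cyclin A2 gene, was at -0.65 ± 0.14 and the kinase gene Aurkb at -0.59 ± 0.11, while Mki67 was at -0.16 ± 0.21 and Top2a at 0.03 ± 0.10 without passing. The single rise was that of the kinetochore gene Ndc80 (0.56 ± 0.21, adjusted p = 0.045), which did not pass when any 1 of 5 arrays was left out (vehicle replicate 2 or 3 or any fraction array; 0.012 to 0.21 over the alternatives).

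The E2F letters TTTCGCG, on either strand, stood in the windows of 1.98% of all tested genes, of 3.24% of those that fell and of 1.75% of those that rose. Of the 27 replication genes with a promoter 6 held them (22.2%), whether called or not. E2F factors are known to drive genes of DNA replication, so this share is not a result of these arrays. Orc1, which encodes a subunit of the origin recognition complex and fell (-1.33 ± 0.12), is shown at chr4:108579204-108579503, plus strand, with the match in capitals starting 26 bases before the gene start.
Orc1: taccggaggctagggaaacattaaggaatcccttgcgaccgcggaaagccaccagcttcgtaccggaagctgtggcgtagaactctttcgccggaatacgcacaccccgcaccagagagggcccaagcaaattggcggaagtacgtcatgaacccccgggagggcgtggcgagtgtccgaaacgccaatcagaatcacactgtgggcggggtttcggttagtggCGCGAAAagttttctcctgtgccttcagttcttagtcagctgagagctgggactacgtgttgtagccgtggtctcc

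Growth arrest and p53 target genes went in both directions. Of 23 measured genes 8 rose and 4 fell, the falls numbering 2 without replicate 2 of the vehicle group or without replicate 1 of the fraction group. Gadd45a, a growth arrest gene, had signals of 96.6, 108 and 56.0 with vehicle and 1406, 1162 and 674 with the fraction, 12.4-fold higher (3.63 ± 0.27, adjusted p = 6.6e-09). Bbc3, which encodes the apoptosis inducer PUMA, went from 324, 405 and 379 to 1407, 1568 and 1258 (1.93 ± 0.18). Cdkn1a (p21), the best-known p53 target, was at -0.10 ± 0.11, and Phlda3 at -0.28 ± 0.15; neither passed. Ribosome biogenesis genes were lower, with 10 of 28 falling, among them Nop16 (4444, 4542 and 4534 with vehicle and 2707, 2531 and 2769 with the fraction) and the RNA polymerase I subunit gene Polr1b (-0.71 ± 0.10). The 1 that rose was Myc, a transcription factor gene, with signals of 60.8, 199 and 187 and 397, 403 and 202 (1.28 ± 0.35, adjusted p = 0.0084); with vehicle replicate 1 left out it was at 0.72 (adjusted p = 0.056, and 0.0027 to 0.09 over the alternatives). Of 17 ribosomal protein genes 2 rose, a count that was 10 without replicate 1 of the fraction group and 5 without replicate 3 of the vehicle group.

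**Figure D4:**
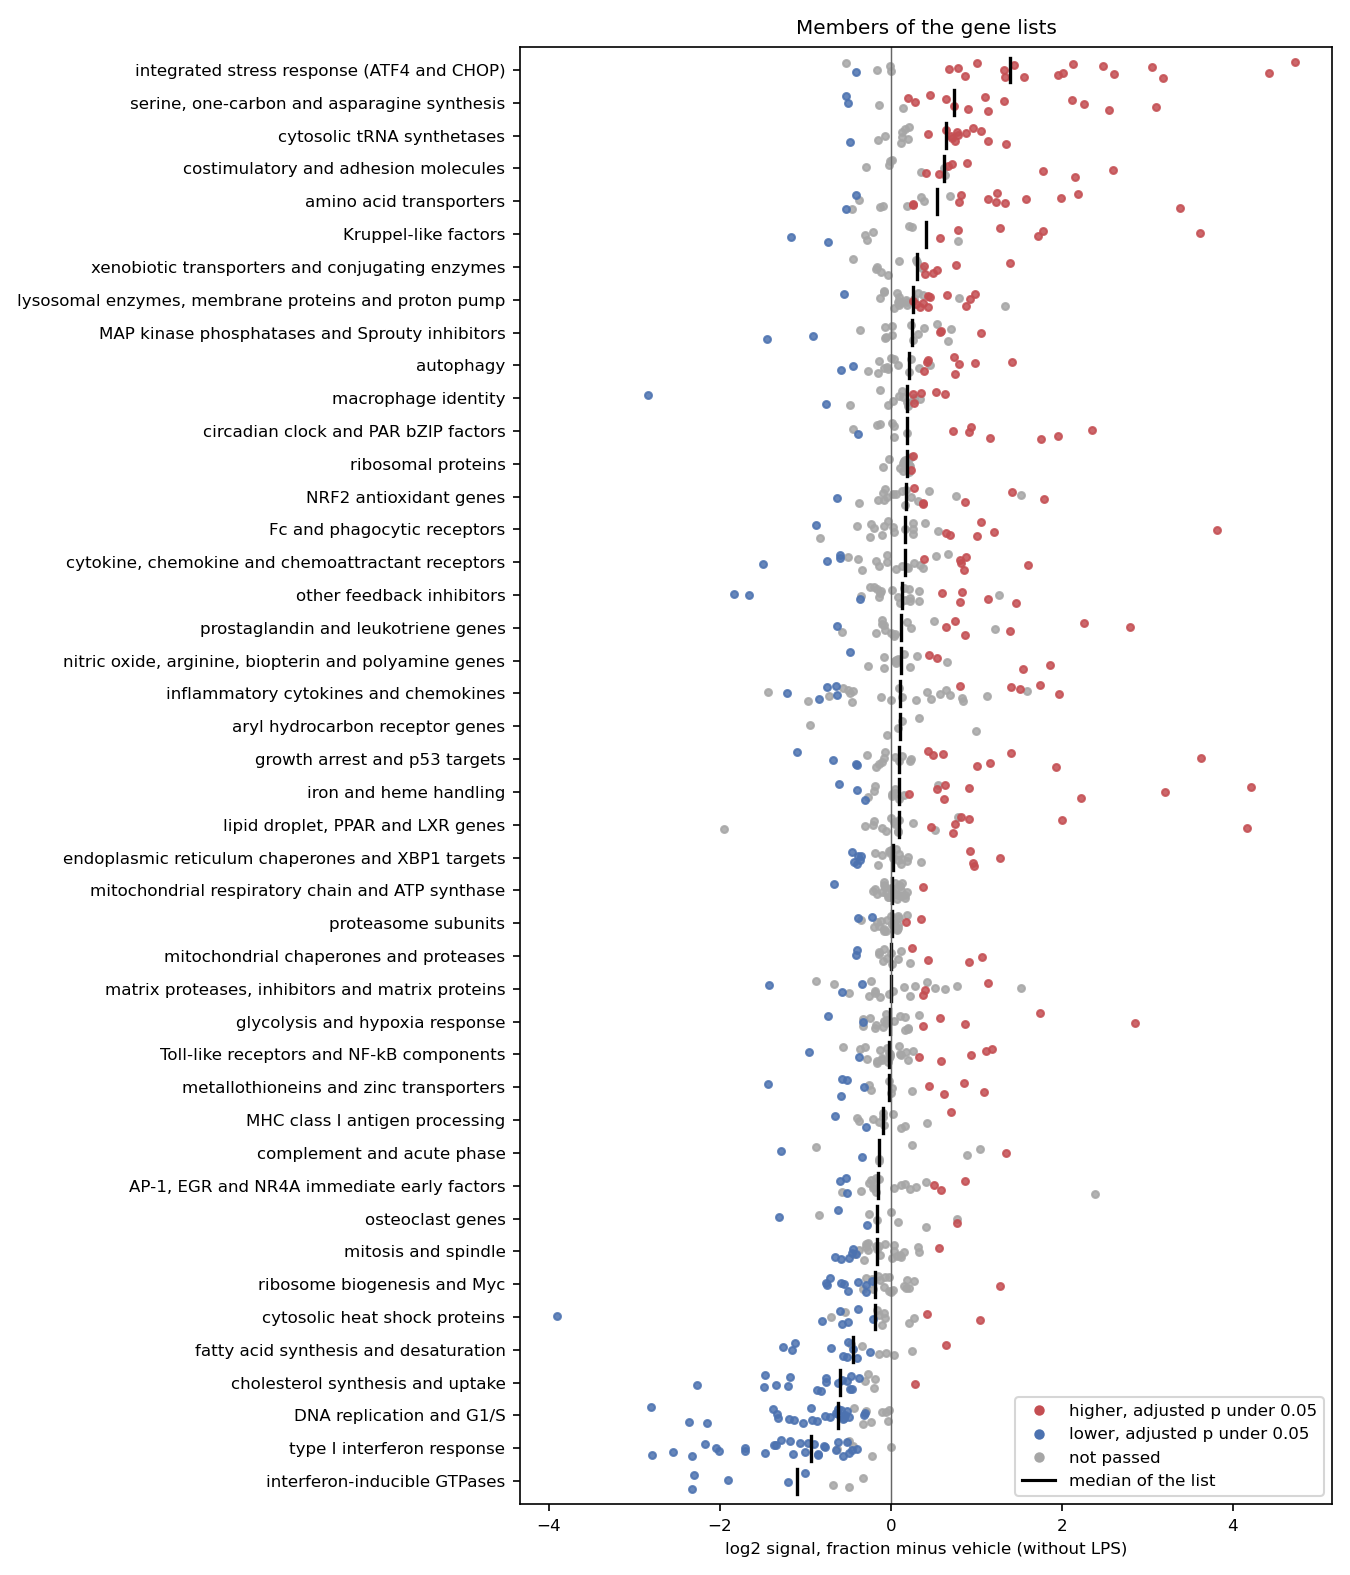
log2 difference, fraction minus vehicle without LPS, of every measured member of the 44 gene lists, with lists ordered by their median (black bar); red points rose, blue points fell and grey points did not pass. Stress response and amino acid lists stand at the top, and interferon, replication and sterol lists at the bottom.

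The redox and metal lists held genes that rose and genes that fell. Of 23 NRF2 antioxidant genes 6 rose and 1 fell, with 3 rising without replicate 2 of the fraction group or after centring on all kept probe sets. Hmox1, which breaks down heme, had signals of 774, 962 and 861 with vehicle and 2718, 3565 and 2729 with the fraction (1.79 ± 0.14, adjusted p = 1.7e-08), and Sqstm1, the p62 autophagy receptor gene, went from 7031, 8699 and 7325 to 18498, 22428 and 20501 (1.42 ± 0.10). Gclc, the catalytic subunit of glutathione synthesis, was at 0.87 ± 0.16. The classic NRF2 targets Nqo1 (0.76 ± 0.58, adjusted p = 0.36) and Gclm (0.32 ± 0.14, adjusted p = 0.086) did not pass, and Keap1, the inhibitor of NRF2, fell (-0.63 ± 0.13). The cystine transporter gene Slc7a11, which both NRF2 and ATF4 are known to induce, went from 417, 439 and 377 to 1697, 1722 and 1472 (1.99 ± 0.11). The antioxidant response element letters TGACNNNGC stood in the windows of 7 of 20 NRF2 genes with a promoter and of 16.8% of all tested genes. The list was drawn up for NRF2, so its share is not a result of these arrays.

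Iron and heme genes had 8 of 21 members higher and 3 lower. Besides Slc40a1 and Lcn2, the ferroxidase gene Cp rose at least 3.44-fold (2.22 ± 0.62), from 67.9, 33.8 and 29.7 to 228, 223 and 137, and the mitochondrial iron importer gene Slc25a37 rose from 759, 883 and 810.4 to 1511, 1556 and 1545 (0.91 ± 0.19). The transferrin receptor gene Tfrc was among the 3 that fell, at -0.60 ± 0.17. Of 15 metallothionein and zinc transporter genes 4 rose and 5 fell. The zinc importer gene Slc39a10 fell from 2099, 2242 and 2465 to 790.1, 828 and 897 (-1.43 ± 0.09, adjusted p = 1.2e-09) and the zinc exporter gene Slc30a1 rose (1.09 ± 0.14). Mt2 rose (0.62 ± 0.11) and Mt1 fell (-0.58 ± 0.11), so the metallothioneins measured did not move together. Of 15 xenobiotic transporters and conjugating enzymes 6 rose and 0 fell, among them Gstp1 (0.76 ± 0.13) and the efflux pump gene Abcc1 (0.50 ± 0.09). Of 6 aryl hydrocarbon receptor genes 0 passed: the receptor gene Ahr was at -0.05 ± 0.43 and its target Tiparp at 0.33 ± 0.13.

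Lysosomal genes leaned higher, with 11 of 30 rising and 1 falling (Neu1, -0.54 ± 0.11), and 7 rose without replicate 2 of the fraction group and 6 after centring on all kept probe sets. Npc1, which exports cholesterol from lysosomes, had signals of 445, 436 and 307 with vehicle and 816, 930.1 and 617 with the fraction (0.99 ± 0.17), and the proton pump subunit gene Atp6v1a went from 4127, 4430.1 and 3586 to 7523, 8346 and 6475 (0.88 ± 0.10). Mitf, a factor that drives lysosomal genes, rose (0.66 ± 0.15), whereas its relatives Tfeb (-0.08 ± 0.22) and Tfe3 (-0.08 ± 0.13) did not pass. Of 23 autophagy genes 8 rose and 2 fell, the rises numbering 5 without replicate 3 of the vehicle group. Nbr1, a cargo receptor gene, went from 1284, 1143 and 1219 to 1972, 2297 and 2057 (0.79 ± 0.09), while Map1lc3b was at 0.09 ± 0.08 and Becn1 at -0.03 ± 0.10.

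Of 32 cytokines and chemokines 5 rose and 5 fell, near the shares over all genes (15.9% and 15.3%), and 8 fell after centring on all kept probe sets. Cxcl2, a neutrophil chemokine gene, had signals of 1092, 1872 and 2168 with vehicle and 6303, 7957 and 5305 with the fraction, 3.92-fold higher (1.97 ± 0.20, adjusted p = 4.2e-07). Vegfa, the angiogenic growth factor gene, went from 259, 234 and 264 to 739, 815 and 1014 (1.75 ± 0.19) and Osm, the oncostatin M gene, from 119, 109 and 105 to 292, 312 and 279 (1.41 ± 0.21). The signal of Tnf, the tumour necrosis factor gene, fell from 5674, 7179 and 6611 to 3769.9, 4691 and 3969.7 (-0.65 ± 0.13, adjusted p = 0.0011). For these 4 genes the groups did not overlap. Il1b read 101, 59.7 and 93.6 and 72.8, 39.7 and 68.7 and did not pass, and Il6 stayed under the array median on all 6 arrays, so its difference of 1.52 ± 0.56 (adjusted p = 0.047) is without a fold; with vehicle replicate 3 left out it was 0.71 (adjusted p = 0.31), and it did not pass when any 1 of the 3 fraction arrays was left out (0.021 to 0.31 over the alternatives).

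Prostaglandin genes included some of the larger rises. Of 20 measured genes 6 rose and 1 fell, and 3 rose with the stricter filter that left 11 of the genes. Ptger2, a prostaglandin E2 receptor gene, had signals of 31.5, 48.9 and 63.4 with vehicle and 342, 355 and 273 with the fraction, at least 5.79-fold higher (2.80 ± 0.31, adjusted p = 1.2e-06). Ptgir, the prostacyclin receptor gene, went from 52.2, 46.8 and 105 to 332, 351 and 242 (2.26 ± 0.36), and Hpgds, a prostaglandin D synthase gene, from 220.4, 233 and 182 to 405, 628 and 666 (1.39 ± 0.19). Ptger4, another prostaglandin E2 receptor gene, fell from 940.4, 853 and 1091 to 509.9, 589 and 796 (-0.62 ± 0.13). Ptgs2, the inducible cyclooxygenase gene, read 2591, 3275 and 4575 with vehicle and 7024, 5752 and 4578 with the fraction (0.75 ± 0.17, adjusted p = 0.0025). Its highest vehicle array and lowest fraction array were nearly equal, and without the 6 arrays numbered 1 the difference was 0.41 (adjusted p = 0.063, 0.00025 to 0.063 over the alternatives). Among 16 nitric oxide, arginine, biopterin and polyamine genes 4 rose and 1 fell. Gch1, the first enzyme of tetrahydrobiopterin synthesis, went from 1458, 1426 and 1449.7 to 4876, 5862 and 5021 (1.86 ± 0.13), whereas Nos2, which encodes inducible nitric oxide synthase, had group means of 55.9 and 88.4 and overlapping arrays, without passing (0.66 ± 0.56, adjusted p = 0.41).

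Several surface receptor genes rose. Of 15 costimulatory and adhesion molecules 8 rose and 0 fell, with a median of 0.62. Cd83, an activation marker of antigen-presenting cells, had signals of 398, 435 and 428 with vehicle and 1007, 1472 and 2015 with the fraction (1.78 ± 0.16, adjusted p = 1.1e-07). Cd200r1, an inhibitory receptor gene, rose at least 4.44-fold, from 80.0, 53.5 and 39.4 to 295, 307 and 164, and Sirpa, the receptor of the CD47 signal, from 1685, 1966 and 1589 to 3363, 3698 and 2738 (0.90 ± 0.13). Of 23 Fc and phagocytic receptors 6 rose and 1 fell, the lipoprotein receptor gene Scarb1 (-0.88 ± 0.11). Clec7a, the beta-glucan receptor dectin-1, was at 1.21 ± 0.17, while Fcgr3 (0.17 ± 0.33) and Trem2 (0.40 ± 0.22) did not pass, and their differences from Fcgr2b were not tested. Of 26 cytokine and chemoattractant receptors 6 rose (3 without replicate 2 of the fraction group) and 4 fell, Cx3cr1, the fractalkine receptor gene, from 1372, 1648 and 1682 to 576, 496 and 588 (-1.50 ± 0.27). Of 28 Toll-like receptor and NF-kB genes 5 rose and 2 fell, or 5 fell after centring on all kept probe sets. Over all genes 15.9% rose and 15.3% fell before that centring. The adaptor gene Tirap was at -0.95 ± 0.13 and Relb at 0.94 ± 0.18.

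Of 19 measured genes of macrophage identity 5 rose and 2 fell, and the rises numbered 2 when vehicle replicate 1, fraction replicate 2 or fraction replicate 3 was left out, and also after centring on all kept probe sets. The 5 that rose were Mpeg1 (0.63 ± 0.20), Ptprc (0.53 ± 0.09), Ncf4, Coro1a and Ncf1. Mpeg1 was among those that did not pass without vehicle replicate 1. The lineage factor gene Spi1 was at -0.12 ± 0.09, Csf1r at 0.19 ± 0.09 and Adgre1, the F4/80 gene, at 0.20 ± 0.11. None of these 3 genes passed. Cebpa, a myeloid transcription factor gene, fell from 1219, 1108 and 938 to 635, 675 and 609 (-0.76 ± 0.12). Osteoclast genes had 1 of 11 higher and 3 lower, with Nfatc1, the master factor of osteoclasts, falling from 1984, 2323 and 1958 to 857, 864 and 807 (-1.31 ± 0.21, adjusted p = 1.1e-04). MHC class I processing genes had 1 of 14 higher and 2 lower, complement and acute phase genes 1 of 9 higher and 2 lower, and matrix genes 3 of 24 higher and 3 lower (5 lower after that centring). Plaur, the urokinase receptor gene, fell from 2239.7, 2716 and 2871 to 1124, 1125 and 963 (-1.28 ± 0.11), and Sdc1, the syndecan 1 gene, from 287, 277 and 213 to 93.6, 116 and 81.0 (-1.42 ± 0.22). Respiratory chain genes had 1 of 27 members higher and 1 lower. Glycolysis and hypoxia genes had 5 of 24 higher, 8 without replicate 1 of the fraction group, and 2 lower, 4 without replicate 3 of that group. Ndrg1, a gene induced by hypoxia and other stresses, rose from 487, 895 and 987 to 4414, 5864 and 6395 (2.86 ± 0.30), but Slc2a1 (0.33 ± 0.15), Ldha (-0.06 ± 0.10) and Pdk1 (-0.07 ± 0.17) did not pass.

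Of 14 Kruppel-like factors 6 rose and 2 fell, with a median of 0.41. Klf4, a factor of monocyte and macrophage differentiation, had signals of 139, 121 and 139 with vehicle and 2039.8, 1572 and 1351 with the fraction, 12.3-fold higher (3.62 ± 0.20, adjusted p = 1.1e-10). Klf6 went from 443, 545 and 594 to 1866, 1865 and 1690.2 (1.79 ± 0.19) and Klf2 from 237, 277 and 169 to 793, 1027 and 491 (1.72 ± 0.26), in both cases without overlap. Clock genes had 7 of 15 members higher and 1 lower, and 4 higher with the stricter filter that left 7 genes. Nfil3, a repressor of clock output genes, went from 264, 394 and 388 to 1658, 1646 and 1969 (2.35 ± 0.43), Ciart, a repressor of the clock, from 122, 142 and 151 to 588, 498 and 525 (1.96 ± 0.19), and Arntl (BMAL1), the core activator, from 408, 542 and 595 to 1872, 1772 and 1541 (1.76 ± 0.13). Per1 was at 0.03 ± 0.18 and Cry1 at 0.19 ± 0.12, and neither passed. Immediate early factors had 3 of 22 higher and 3 lower, near the shares over all genes, with Egr1 at -0.17 ± 0.27, Jun at 0.12 ± 0.15 and Nr4a1 at -0.23 ± 0.26, none of which passed.

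Of 18 MAP kinase phosphatase and Sprouty genes 3 rose and 2 fell, near the shares over all genes (15.9% and 15.3%). Dusp4 went from 1489, 2491 and 2363 to 4286, 4646 and 3986 (1.06 ± 0.16) and Dusp14 from 274, 271 and 180.0 to 95.4, 104 and 66.8 (-1.44 ± 0.34). Of 26 other feedback inhibitors 5 rose and 3 fell, also near those shares. Socs3, an inhibitor of cytokine receptor signalling, fell from 338, 375 and 479 to 89.7, 123 and 120.5 (-1.84 ± 0.24, adjusted p = 8.1e-06), and all 3 of its probe sets fell. The interleukin 1 receptor antagonist gene Il1rn rose from 277, 534 and 405 to 871, 1543 and 940.0 (1.47 ± 0.37) and the atypical inhibitor gene Nfkbiz from 1729, 1936 and 2447 to 4548, 3986 and 4825 (1.14 ± 0.15), while Nfkbia, the main NF-kB inhibitor gene, was at 0.23 ± 0.09.

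The same fraction was set against vehicle in cells that also received LPS, and the difference between the effects was tested as an interaction. Without LPS 31.2% of genes were called and with LPS 2746 genes (23.8%); of the 3608 genes called without LPS, 1866 were called in the same direction with LPS and 23 in the opposite. The interaction passed for 247 genes (2.14%), 103 higher and 144 lower with LPS. Single arrays moved these counts: they were 54 and 71 without vehicle replicate 3, 65 and 59 without fraction replicate 2, and 60 and 63 without replicate 2 of vehicle with LPS. The lower count was 91 without fraction replicate 3 and 87 without replicate 3 of the fraction with LPS. Among the genes called without LPS it passed for 202, and for 187 of these the difference was smaller in size with LPS. These genes were chosen by their difference without LPS, which the interaction subtracts, so the choice itself favours a smaller difference with LPS. The interaction also passed for 45 genes that were not called without LPS. The integrated stress response had 7 of 22 members past the interaction and a median of 1.01 with LPS, against 1.39 without. Ddit3 was at 2.32 with LPS (interaction -2.10, adjusted p = 0.0016) and Nupr1 at 0.96 (interaction -2.10, adjusted p = 6.1e-05). The serine list and the tRNA synthetases had 0 members past the interaction, and 13 of 17 and 13 of 21 rose with LPS. Cth was at 2.82 with LPS and Aars at 1.14.

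Interferon genes had 6 of 34 members past the interaction, all smaller with LPS, and 6 instead of 29 fell with LPS (median -0.43). Cxcl10 was at -0.45 with LPS (interaction 2.35, adjusted p = 6.0e-05). Of the 22 cholesterol genes 17 fell with LPS, with a median of -0.95, and Insig1 alone passed the interaction (interaction 1.26, adjusted p = 0.0064). Of the 33 replication genes 15 fell and 4 rose with LPS, and 6 passed the interaction. Klf4 was at 0.81 with LPS (interaction -2.80, adjusted p = 2.5e-05), and Hspa1b at -0.92 (interaction 2.99, adjusted p = 1.5e-06). Ptger4 was an exception in size, falling by 2.22 with LPS against 0.62 without (interaction -1.60, adjusted p = 1.5e-04). Tnf fell without LPS and was at 0.37 with it (interaction 1.01, adjusted p = 0.0071).

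**Figure D5:**
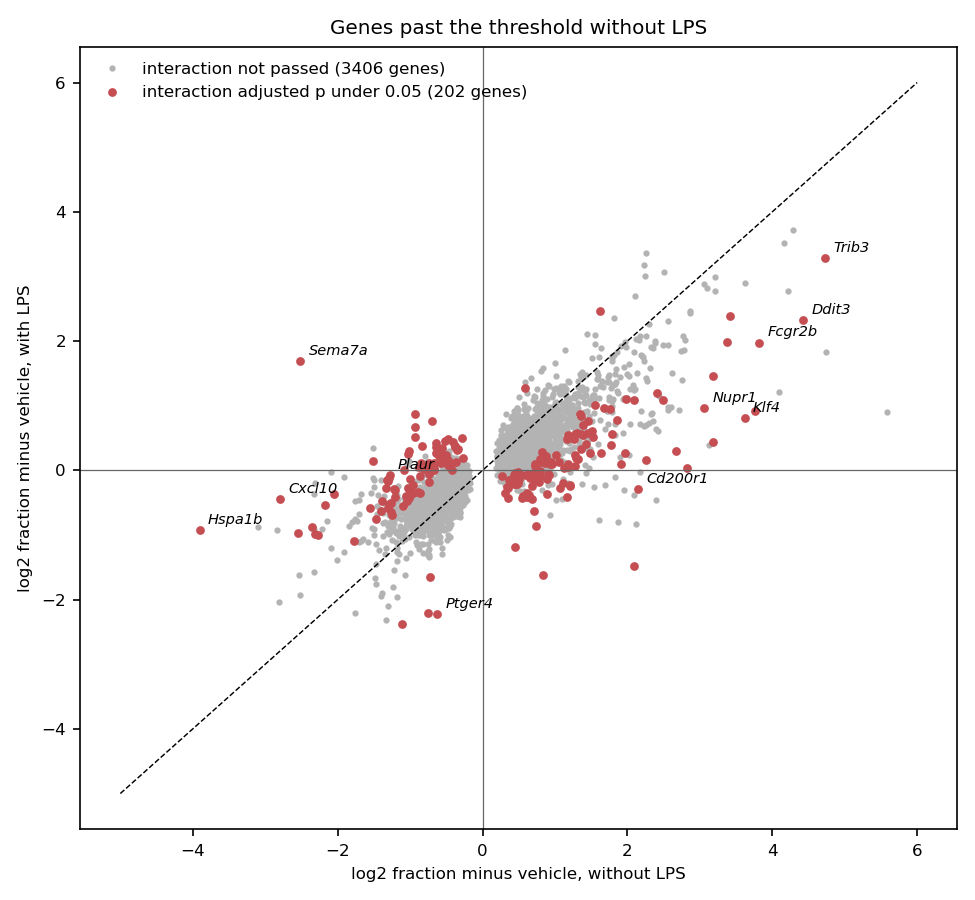
log2 difference between fraction and vehicle without LPS (x axis) and with LPS (y axis) for the 3608 genes called without LPS; the 202 genes past the interaction are red, the others grey, and the dashed line marks equal differences. Most red points lie nearer to 0 on the y axis than on the x axis, with Ptger4 among the exceptions. The genes were chosen by their difference on the x axis, which favours this position.

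The mixture of 4 compounds was compared directly with the fraction, in cells without LPS. The fraction differed from the mixture in 3743 genes (32.4%), 1962 higher and 1781 lower. This comparison shares the fraction arrays with the one against vehicle, and the genes named next were chosen among those called against vehicle. Trib3 was 5.08 higher on the log2 scale with the fraction than with the mixture, Cth 3.35 and Dennd2d, a membrane trafficking regulator gene, 2.37. Lsm6, an RNA processing gene, was at -1.79 and Hspa1b at -4.00 in that comparison. Against the same vehicle arrays 0 genes (0%) passed for the mixture by limma, with 565 genes at an unadjusted p under 0.05 and a smallest adjusted p of 0.55. The integrated stress response had a median of -0.06 with the mixture and 1.39 with the fraction, and the interferon list 0.02 and -0.93. The composition of the fraction, and so the amounts of the 4 compounds in it, is not in the labels, so the doses cannot be matched.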

How the data were processed

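Per the submitters' processing notes, the authors deposited MAS5 signals, linear intensities for 45101 probe sets on each of 18 arrays; the MAS5 version is not given in the sources used here. The 64 control probe sets were removed, values below 1 (0.823%) were raised to 1, and log2 was taken. Probe sets at or above the median of their array on 3 or more of the 18 arrays were retained (25612). Those with a single gene symbol were named through the platform annotation and a RefSeq table, and the brightest stood for each of 11547 genes.

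All 6 groups entered a limma model (version 3.58.1, R 4.3.3) of group means with a moderated variance that follows intensity. Two-sided p-values were adjusted across all genes by Benjamini-Hochberg. The fit was also run on simulated data with independent noise and fewer changed genes than were called here. That setting leaves out deviations shared by arrays of a number. For folds, a group under its array median was set to that median and the fold given as at least. Alternatives were a replicate block, quantile normalization, median centring over the tested genes or all kept probe sets, log2 of the value plus 32, no filter, a 75th percentile filter, no trend, only the arrays compared, every kept probe set with a symbol, a 2-fold minimum, and arrays left out.

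Members, lists and rules were chosen with earlier results of these data known. Genes named were the 15 largest rises and 15 largest falls whose groups did not overlap. They were taken among called genes at or above the array median on all 3 arrays of the higher group. Others were up to 4 called members of each of 44 lists. The 8 smallest p of the interaction and of fraction against mixture were taken among genes called for fraction against vehicle without LPS. Named throughout were 8 genes: Hmox1, Socs3, Nos2, Il6, Il1b, Tnf, Ptgs2 and Cyp1a1. Cyp1a1 was not among the tested genes. Called genes behind counts of 5 or fewer, and Asns, Orc1, Shmt2 and Mthfd2, were chosen after their values were seen. The number of arrays limits the precision.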

Additional observations from a re-analysis of the deposited data

Results flagged for a closer look

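The named genes below stand here because the effect of the fraction differed between cells with and without LPS by the interaction test (limma, adjusted p under 0.05). Values are log2 differences, the effect with LPS minus the effect without. All of these genes were called without LPS, a choice that favours a smaller difference with LPS. Of the 44 genes, 22 passed under every alternative that tested them (22, or 21 for Map2k3os), and 16 did not pass when 1 array was left out: Cd200r1, Ccng2, Nme1, Scd2, Klf6, Klf9, Glrp1, Gla, Arntl, Herpud1, Atp6v1a, Tlr4, Nbr1, Tirap, Mx2 and Sema7a.

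Among genes that rose without LPS, the interaction was -2.10 for both Ddit3 and Nupr1, -1.72 for Atf3, -1.44 for Trib3, -1.40 for the transporter gene Slc1a4, -0.89 for Slc7a11 and -0.71 for Herpud1. It was -2.80 for Klf4, -1.22 for Klf6, -1.05 for Klf9, -0.80 for Arntl and -1.58 for the cyclin gene Ccng2. Receptor and mediator genes were at -2.44 (Cd200r1), -1.84 (Fcgr2b), -1.70 (Cxcl2), -1.46 (Clec7a), -1.38 (Cd83), -1.08 (Gch1) and -0.64 (Tlr4). Lysosomal and autophagy genes were at -2.84 (Slc46a3), -0.83 (Gla), -0.66 (Atp6v1a) and -0.61 (Nbr1), and Glrp1 was at -1.03. The non-coding genes Snhg12 and Map2k3os were at -1.20 and -1.63.

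Among genes that fell without LPS, interferon genes were at 2.35 (Cxcl10), 1.69 (Mx2), 1.63 (Rsad2), 1.58 (Ifit1) and 1.32 (Irgm1), so each fell by less with LPS. Hspa1b was at 2.99, Cdc6 at 1.48, the DNA repair gene Rad54l at 0.95, Insig1 at 1.26, Fasn at 0.62, Plaur at 1.21, Tnf at 1.01, Tirap at 0.72 and Lsm6 at 0.67. Sema7a was at 4.20, from signals under or near the array median. The interaction was negative for Ptger4 (-1.60), Scd2 (-1.26) and Nme1 (-1.46), which fell further with LPS; the Nme1 signals with the fraction ranged from 4245 to 14171 over the 3 arrays.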

How the results depend on the processing

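Of 185 named genes past the threshold, 148 passed in the same direction under every alternative that tested them (up to 16), 37 did not pass under at least 1 (10 of these only when 1 array was left out), and 0 changed sign. Testing each of the 21553 kept probe sets with 1 gene symbol called 3086 higher and 2727 lower for fraction against vehicle, and 3248 higher and 2765 lower for fraction against mixture, since more features were tested; a 2-fold minimum left 389 and 195. Leaving out 1 array gave 1427 to 1683 higher and 1449 to 1584 lower genes against vehicle. The interaction was less stable: 60 higher and 65 lower without an eBayes trend, 55 and 86 from only the arrays compared, and 54 to 145 higher and 59 to 199 lower when 1 array was left out, where the cause was not tested. With a replicate block the interaction called 198 and 269 genes, and the fraction against vehicle 2123 and 2038; falls then numbered 9 of 32 cytokines, 11 of 28 mitotic genes, 4 of 28 Toll-like receptor and NF-kB genes and 5 of 14 MHC class I genes. Same-numbered arrays of both groups correlated at 0.0582 to 0.116 in their deviations from the group means. Vehicle and fraction arrays with different numbers were at -0.0909 to -0.00345. The same-numbered values were not all above 0.1, the level set for pairing, so numbers were not taken as pairs. Arrays of a number did share some deviation, as in the interferon list, and the replicate block is the alternative that takes it up. Centring on the tested genes gave 1747 higher and 1862 lower (median shift -0.01) and on all kept probe sets 1344 and 2274 (-0.09), the latter chosen after seeing the data. Low signals limit what can be said of Gbp8, Gbp2, Il6, Sema7a and Maf.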

Other observations

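Host genes of small nucleolar RNAs were not among the lists above; the family was picked after values had been seen. Of 12 measured genes (Gas5 and the Snhg genes), 6 rose and 1 fell with the fraction in the absence of LPS. Over all tested genes 15.9% rose and 15.3% fell. Snhg12 had signals of 1001, 937 and 932 with vehicle and 2444, 2359 and 2130.1 with the fraction (1.27 ± 0.09, adjusted p = 2.4e-09), Snhg5 went from 2377, 1746 and 1955 to 4648, 4349 and 4730.4 (1.19 ± 0.14), and Gas5 from 8863, 7479.7 and 7586 to 12380.0, 12104 and 12566 (0.63 ± 0.09). The 1 that fell was Snhg3 (-0.70 ± 0.16), while Snhg8 (0.19 ± 0.10) and Snhg7 (0.15 ± 0.18) did not pass. With LPS, Snhg12 was at 0.07 (interaction -1.20, adjusted p = 2.6e-05) and Snhg5 at 0.09 (interaction -1.10, adjusted p = 0.0058).

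Of the 4059 kept probe sets that carry no single gene symbol, 354 rose and 291 fell in the comparison of fraction and vehicle, by the same limma fit over all 25612 kept probe sets, named or not. In that fit 3362 probe sets were higher and 2955 lower in all.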
